A study of Homo sapiens with 9 samples.

Results

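AP-1 is a family of transcription factors made of FOS and JUN proteins. Its genes were followed in DU145, a widely used cell line from a human prostate carcinoma, kept for 6 days with solvent or 1 of 2 compounds. The 7 genes FOS, FOSB, FOSL1, FOSL2, JUN, JUNB and JUND were taken by name from the 16772 genes of the deposited expression table, and all 7 were found. The first group of 3 libraries came from cells given DMSO alone, the solvent that every treated cell also received. The second group of 3 received 20 µM H93, which the series title presents as directed at the DNA methylation regulator UHRF1, and the third group of 3 received 500 nM SAHA (vorinostat), a histone deacetylase inhibitor. The labels write these doses as micrometres and nanometres in places, and they are read here as molar units. The labels give the genotype as wild type for all libraries, and the replicates are not stated to be separate cultures, so the p-values may speak only of technical spread among the libraries.

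A FOS protein pairs with a JUN protein through a leucine zipper, and JUN proteins can also pair with each other or with related zipper proteins such as ATF2. The pairs bind a short DNA element called the TRE, and pairs with ATF proteins favour a related element, the CRE. FOS, FOSB and JUN are known for fast, short induction by growth factor and stress signals through MAP kinases, whereas FOSL1 (FRA-1) and FOSL2 (FRA-2) are induced later and last longer. FOSL1 is known as a prominent AP-1 subunit of invasive carcinoma cells, and JUND is the JUN gene with the most constant expression in resting cells.

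Expression is given as FPKM, fragments scaled by transcript length and by library size, so levels of different genes can be set side by side. Absolute read depth is unknown. FPKM summed to between 348656 and 355741 per library, and between 14910 and 15295 genes were above 0. The line's epithelial markers EPCAM, KRT8, KRT18, KRT19 and CDH1 were all present, with CDH1 the lowest at a mean of 4.34 FPKM in H93. PTPRC of blood cells and PECAM1 of endothelium stayed at or below 0.0179 and 0.0377 FPKM. Over the 8 markers of blood, endothelial and stromal cells in the table, summed FPKM per library ran from 25.2 to 26.2 in DMSO, from 32.1 to 33.8 in H93 and from 37.5 to 40.9 in SAHA. Most of that sum was CD68, a lysosomal membrane protein gene used as a macrophage marker, which averaged 22.4, 28.3 and 33.4 FPKM in the same order. COL1A1, a collagen chain gene, averaged 2.24, 3.20 and 3.25 FPKM, and both genes rose with both compounds. The other 6 together stayed at or below 2.68 FPKM in every library. EPCAM fell from a mean of 67.1 FPKM in DMSO to 30.4 in H93 and 37.8 in SAHA, CDH1 also fell with both compounds, and KRT19 rose with both. The part of these marker changes in the results below was not tested. Comparisons rest on limma fitted to log2(FPKM + 1) of 11525 genes with at least 1 FPKM in at least 3 libraries. A gene under that level in 1 group could thus be kept through the libraries of another group. A gene is said to rise or fall where its p, adjusted over all 11525 genes by Benjamini-Hochberg, was under 0.05.

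The promoters of the JUN and JUND genes are shown first because these 2 genes moved furthest in opposite directions. Each line holds the bases just before the RefSeq start site (GRCh38.p14), read 5′ to 3′ on the gene's strand, and capitals mark matches to the TRE, the CRE, its half-site or the TRE-like site. JUN is printed from chr1:58784048-58784297 on the minus strand and JUND from chr19:18281623-18281872 on the minus strand. For FOS (chr14:75278708-75278827, plus strand), FOSB (chr19:45467876-45467995, plus strand) and JUNB (chr19:12791336-12791485, plus strand) shorter stretches carry the match nearest the start.
JUN: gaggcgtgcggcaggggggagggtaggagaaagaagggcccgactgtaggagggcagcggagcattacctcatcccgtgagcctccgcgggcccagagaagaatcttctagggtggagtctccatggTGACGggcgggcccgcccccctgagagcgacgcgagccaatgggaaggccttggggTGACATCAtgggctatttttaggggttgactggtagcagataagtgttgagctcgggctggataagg
JUND: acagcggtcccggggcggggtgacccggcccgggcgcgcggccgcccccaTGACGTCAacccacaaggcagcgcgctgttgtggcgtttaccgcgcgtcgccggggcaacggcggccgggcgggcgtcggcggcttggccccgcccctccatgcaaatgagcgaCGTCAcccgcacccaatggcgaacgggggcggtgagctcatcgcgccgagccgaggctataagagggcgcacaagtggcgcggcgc
FOS: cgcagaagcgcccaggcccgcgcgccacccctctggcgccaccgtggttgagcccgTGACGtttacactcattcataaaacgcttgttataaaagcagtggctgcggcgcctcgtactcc
FOSB: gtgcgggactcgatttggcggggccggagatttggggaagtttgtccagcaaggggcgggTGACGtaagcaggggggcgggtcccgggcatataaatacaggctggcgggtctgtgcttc
JUNB: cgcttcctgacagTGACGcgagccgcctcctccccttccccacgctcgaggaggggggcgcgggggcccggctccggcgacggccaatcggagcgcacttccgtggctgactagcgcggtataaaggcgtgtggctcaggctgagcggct

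Windows from 250 bases before to 50 after the start were searched on both strands, and 6 of the 7 members had one. FOSL1 had no window and was not searched. The TRE was searched as TGACTCA, the CRE as TGACGTCA, the CRE half-site as TGACG (contained in the full CRE) and the TRE-like site as TGACATCA, the form known from the JUN promoter as a site for JUN and ATF2 pairs. JUN held the TRE-like site beginning 67 bases before its start, which 2.61% of all 35116 promoter windows hold. JUND held a full CRE beginning 200 bases before its start, which 1.85% of windows hold. CRE half-sites, found in 24.6% of windows, occurred in all 6 members with a window. They began 64 bases before the start in FOS, 60 in FOSB, 137 in JUNB and 123 in JUN, at 201 and 66 in FOSL2, and at 86 in JUND besides the pair within its full CRE. The TRE itself, present in 4.95% of windows, was matched in FOSL2 alone among the members with a window. It began at base 5 counted from the RefSeq start. These are letter matches and say nothing of which protein sits there.

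**Figure D1:**
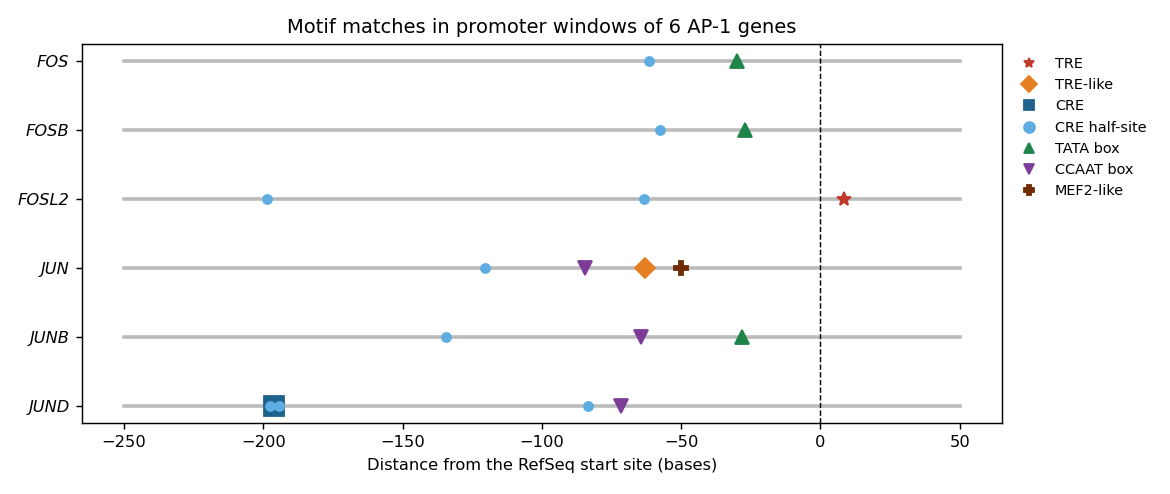
Matches to 7 motifs in the promoter windows of 6 AP-1 genes, drawn by distance in bases from the RefSeq start site (dashed line). JUND alone shows a full CRE (at 200 bases before the start), JUN alone the TRE-like site (67 before), and FOSL2 alone a TRE (5 after).

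In solvent-treated cells FOSL1 was the most abundant member, at 105, 105 and 102 FPKM in the 3 libraries, above 96.7% of all genes in the table or level with them. JUND followed at 41.4 ± 0.885 FPKM (mean ± SD, n = 3 throughout), then JUNB at 38.2 ± 0.631, FOSL2 at 32.4 ± 0.563 and JUN at 26.0 ± 0.778. Among the genes known for fast induction FOS and FOSB, unlike JUN, were low: FOS stood at 2.33 ± 0.262 FPKM and FOSB at 0.124 ± 0.0371. No neighbours in this order overlapped in their library values. After H93 the order became FOSL1, JUN, JUNB, FOSL2, JUND, FOS and FOSB, again without overlap between neighbours. After SAHA it was FOSL1, JUNB, JUN, JUND, FOSL2, FOS and FOSB, and there JUNB and JUN overlapped. JUN thus passed FOSL2, JUNB and JUND with H93, while JUND, next after FOSL1 in solvent, stood below FOSL2 with H93 and below JUN with SAHA.

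**Figure D2:**
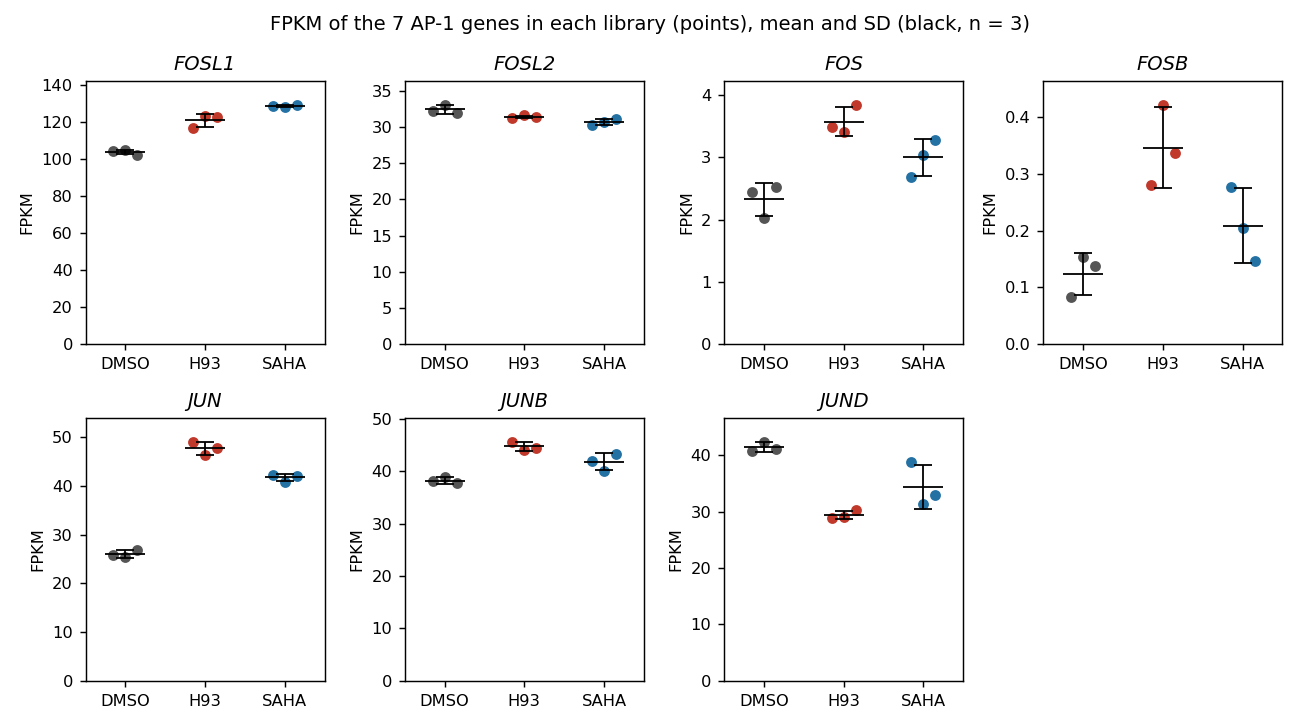
FPKM (vertical axes, each from 0) of the 7 AP-1 genes in every library, with DMSO grey, H93 red and SAHA blue points and the mean and SD of 3 libraries in black. JUN lies between 25.3 and 26.8 in DMSO, 46.3 and 49.0 in H93 and 40.9 and 42.3 in SAHA, while JUND is lowest in H93.

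The first comparison asked what H93 changed against solvent. JUN rose most, FOS, JUNB and FOSL1 rose less, and JUND fell. Of the 6 members with enough signal to test, 4 rose and 1 fell, beside 34.9% of all tested genes that rose and 35% that fell; 69.8% were called in either direction, so the number of members called is near that background. The members' median log2 difference was 0.22, against 0.0016 over all 11525 genes, and their median absolute difference was 0.34 against 0.20. No tested member reached the 2-fold size (a difference of at least 1 in log2(FPKM + 1)), which 2.28% of genes did. The groups did not overlap in 6 of 6 tested members, where 73.2% of all genes showed no overlap.

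Among the JUN genes, JUN, the subunit that most strongly activates AP-1 targets, read 25.8, 25.3 and 26.8 FPKM in DMSO and 49.0, 46.3 and 47.7 in H93. All H93 libraries lay far above all DMSO libraries, a 1.84-fold difference of the means. The log2 difference was 0.85 (SE 0.0310, adjusted p = 2.62e-10, limma), and its size exceeded that of 96.2% of tested genes. JUNB, which can restrain JUN in some settings, went from 38.1, 38.9 and 37.7 FPKM to 45.6, 44.1 and 44.5. The groups were apart but close, with a log2 difference of 0.22 (SE 0.0308, adjusted p = 3.68e-05, limma). JUND, often linked to growth restraint, read 40.7, 42.4 and 41.1 FPKM in DMSO and 28.9, 29.1 and 30.2 in H93. Every H93 library was lower than every DMSO library, and the log2 difference was -0.48 (SE 0.0590, adjusted p = 1.23e-05, limma). JUNB overlaps HOOK2 on the other strand in GENCODE release 29, and whether the authors' counting used strand is not given in the sources used here. HOOK2 read 7.84 ± 0.291 FPKM in DMSO and 7.17 ± 0.188 in H93, and the part of HOOK2 reads in the JUNB values was not tested.

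Among the FOS genes, FOSL1 went from 105, 105 and 102 FPKM to 117, 124 and 123. The gain was small but larger than the spread, with a log2 difference of 0.22 (SE 0.0243, adjusted p = 5.09e-06, limma). FOS, the prototype immediate early member, read 2.44, 2.03 and 2.52 FPKM in DMSO and 3.48, 3.40 and 3.84 in H93. This was 1.54-fold on the FPKM scale and 0.46 in log2(FPKM + 1) (SE 0.0721, adjusted p = 9.79e-05, limma), a scale that understates changes of low genes. FOSL2 read 32.2, 33.0 and 31.9 FPKM in DMSO and 31.3, 31.6 and 31.3 in H93. Its log2 difference of -0.044 did not pass (adjusted p = 0.142, limma), with a 95% confidence interval from -0.10 to 0.012.

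FOSB was below the filter, never above 0.421 FPKM, and was not tested with the others. It read 0.0824, 0.153 and 0.138 FPKM in DMSO, 0.280, 0.421 and 0.337 in H93, and 0.277, 0.204 and 0.146 in SAHA. The H93 libraries were all above the DMSO libraries, and SAHA overlapped DMSO. The mean in H93 was 2.78 times that in DMSO on the FPKM scale, at values near the floor. With no filter on low values FOSB passed for H93 against DMSO (log2 difference 0.26, adjusted p = 0.00186, limma) and not for SAHA against DMSO (0.10, adjusted p = 0.126). FOSB overlaps ERCC1 on the other strand, and ERCC1 rose from 12.5 ± 0.507 FPKM in DMSO to 21.2 ± 0.700 in H93 and 17.4 ± 0.924 in SAHA. The part of ERCC1 reads in the FOSB values was not tested.

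The second comparison asked what SAHA changed against solvent, using the same 3 DMSO libraries. JUN, FOSL1, FOS and JUNB rose, and JUND and FOSL2 fell. Of the 6 tested members 4 rose and 2 fell, beside 27.4% of all genes that rose and 31.4% that fell, with 58.8% called in all. The members' median log2 difference was 0.20 against -0.015 over all genes, and none reached 2-fold, which 1.12% of genes did. In 6 of 6 members the groups did not overlap, as in 64.1% of all genes.

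JUN read 42.3, 40.9 and 42.1 FPKM after SAHA, all above the DMSO libraries, with a log2 difference of 0.66 (SE 0.0310, adjusted p = 4.65e-09, limma). FOSL1 read 129, 128 and 129 FPKM, the narrowest group of any member relative to its level, with a log2 difference of 0.30 (SE 0.0243, adjusted p = 4.74e-07, limma). FOS, at 2.69, 3.04 and 3.27 FPKM, rose by 0.27 (adjusted p = 0.00704), and JUNB, at 41.9, 40.1 and 43.3, by 0.12 (adjusted p = 0.004, limma). JUND read 38.8, 31.3 and 33.0 FPKM, so SAHA replicate 1 lay closer to the DMSO libraries than the other two. Its log2 difference was -0.27 (SE 0.0590, adjusted p = 0.00194, limma), and -0.36 without that library. FOSL2, at 30.3, 30.7 and 31.1 FPKM, had a log2 difference of -0.075 (adjusted p = 0.0235, limma). That call was lost without DMSO replicate 2 (adjusted p = 0.0931) or SAHA replicate 1 (adjusted p = 0.072).

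The third comparison set H93 against SAHA directly, at their different doses. JUN and JUNB were higher with H93, and FOSL1 and JUND were higher with SAHA. Thus 2 members were called higher and 2 lower in H93, beside 17.6% and 13.9% of all genes and 31.5% called in all. None reached the 2-fold size, as in all but 0.0174% of genes. JUN differed by 0.19 in log2 (SE 0.0310, adjusted p = 0.00102, limma) and kept its call under every alternative tried. FOSL1 differed by -0.087 (SE 0.0243, adjusted p = 0.0183, limma), JUNB by 0.097 (SE 0.0308, adjusted p = 0.032) and JUND by -0.21 (SE 0.0590, adjusted p = 0.0173). FOS (0.20, interval 0.038 to 0.35, adjusted p = 0.0574) and FOSL2 (0.031, interval -0.025 to 0.087, adjusted p = 0.386) did not pass. The groups did not overlap in 6 of 6 members, as in 44.4% of all genes.

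Several of these calls depended on which libraries were included. With 1 library left out at a time, the difference stayed between 0.068 and 0.122 for JUNB and between -0.101 and -0.063 for FOSL1. Without H93 replicate 1 only JUN of the members remained called, with FOSL1 at adjusted p = 0.0748, JUNB at 0.108 and JUND at 0.0542. FOSL1 also lost its call without SAHA replicate 3 (adjusted p = 0.0503). JUNB also lost it without H93 replicate 2 (0.0503), H93 replicate 3 (0.0596), SAHA replicate 1 (0.0594) or SAHA replicate 2 (0.114). For JUND the size shrank to -0.12 without SAHA replicate 1, still with an adjusted p of 0.0222. FOS gained a call without DMSO replicate 2 (0.0383) or SAHA replicate 3 (0.0421).

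**Figure D3:**
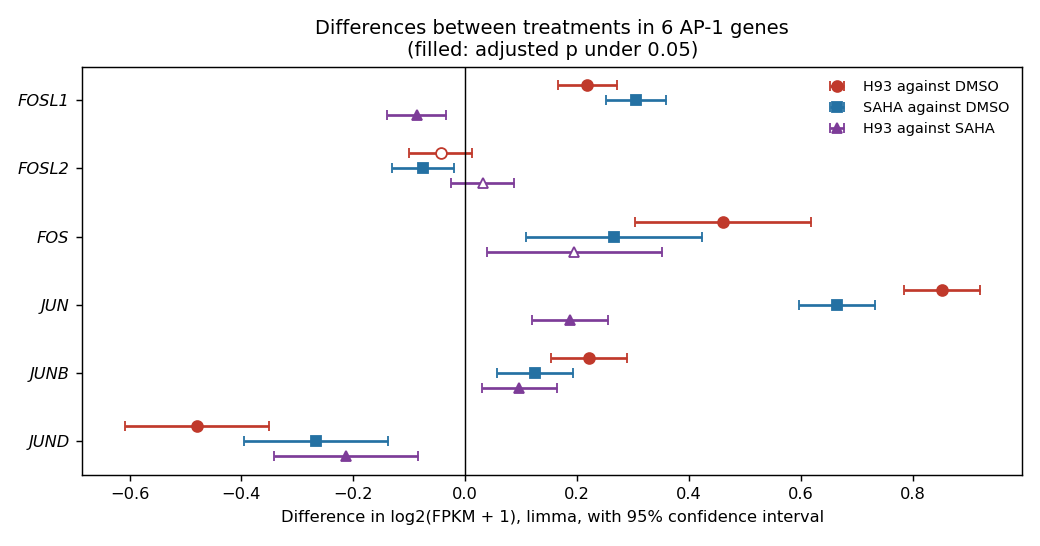
Differences in log2(FPKM + 1) for the 6 tested AP-1 genes with 95% confidence intervals from limma, for H93 against DMSO (red circles), SAHA against DMSO (blue squares) and H93 against SAHA (purple triangles), filled where the adjusted p was under 0.05. JUN is farthest right for both compounds (0.85 and 0.66) and JUND farthest left (-0.48 and -0.27).

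Since FPKM is per length, the make-up of each family can be described within a library. These shares are given as descriptions, with no test. JUN held 24.6% ± 0.832 of the summed JUN family FPKM in DMSO, 39.1% ± 0.488 in H93 and 35.4% ± 1.02 in SAHA. JUND held 39.2% ± 0.482, 24.1% ± 0.681 and 29.1% ± 2.12. JUN and JUND thus changed places with H93: the ratio of JUN to JUND was 0.628 ± 0.0282 in DMSO, 1.62 ± 0.0652 in H93 and 1.22 ± 0.117 in SAHA, with no overlap between any pair of groups. The share of JUNB was 36.2% ± 0.449, 36.7% ± 0.344 and 35.5% ± 1.28. The 3 JUN genes together summed to 106 ± 1.05 FPKM in DMSO, 122 ± 2.12 in H93 and 118 ± 5.38 in SAHA.

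The FOS family was made up mostly of FOSL1 in every library, at 74.9% ± 0.146 in DMSO, 77.4% ± 0.396 in H93 and 79.1% ± 0.269 in SAHA. FOSL2 held 23.3% ± 0.233, 20.1% ± 0.415 and 18.9% ± 0.141. FOS held 1.68% ± 0.203, 2.29% ± 0.146 and 1.85% ± 0.170, and FOSB at most 0.265% in any library. The summed FOS family FPKM ran from 137 to 140.0 in DMSO, from 152 to 159 in H93 and from 162 to 164 in SAHA. Relative to the JUN family sum this gave ratios of 1.31 ± 0.0176, 1.28 ± 0.0506 and 1.38 ± 0.0636, whose ranges overlapped between all groups.

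**Figure D4:**
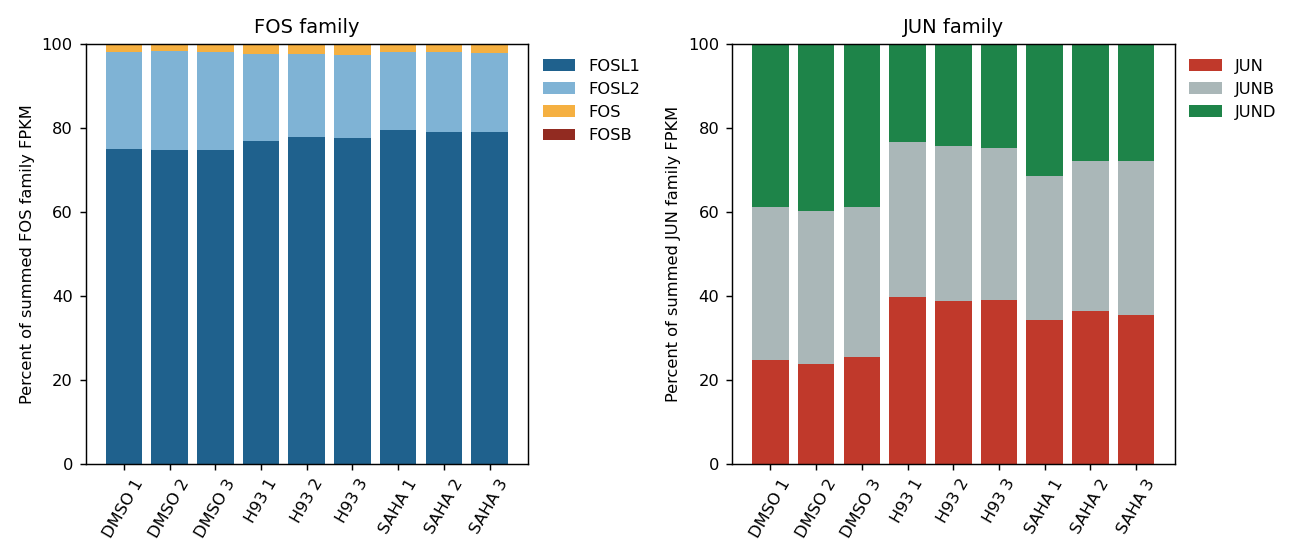
Percent of the summed FPKM of the FOS family (left) and the JUN family (right) held by each gene, as 1 stacked bar per library. JUN (red) goes from 24.6% in DMSO to 39.1% in H93 and JUND (green) from 39.2% to 24.1%, while FOSL1 (dark blue) holds at least 74.8% of its family in every library.

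Dimer partners, the other zipper proteins that pair with FOS or JUN proteins or compete with them, included genes that rose and genes that fell. Of 14 listed genes 9 had enough signal. With H93 3 rose and 3 fell, beside 34.9% and 35% of all tested genes (69.8% in all), and with SAHA 4 rose and 3 fell, beside 27.4% and 31.4% (58.8% in all). Their median log2 differences were -0.017 and 0.034, against 0.0016 and -0.015 over all genes. ATF3, a stress-induced member of the ATF group, rose from 4.63 ± 0.200 FPKM to 9.41 ± 0.919 with H93 and 7.97 ± 0.146 with SAHA. MAFF, a small MAF protein, rose from 16.4 ± 1.20 to 22.9 ± 0.148 and 21.2 ± 0.186. JDP2, a repressor that pairs with JUN proteins, fell from 2.56 ± 0.140 to 1.66 ± 0.243 and 1.93 ± 0.0704. BATF2, counted among the rises, went from 0.778 ± 0.138 to 1.38 ± 0.289 and 1.40 ± 0.318. It read at most 0.937 FPKM in DMSO and passed the filter only through the treated libraries. Its rise is therefore not independent of the filter. BATF3 was lower with H93 (5.59 ± 0.198) than with SAHA (6.76 ± 0.359; log2 difference -0.23, adjusted p = 0.011, limma).

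Upstream of AP-1 lie the RAS and MAP kinase cascades and SRF with its ETS partners, which drive the FOS promoter. Of 33 listed genes 31 were tested. With H93 15 rose and 8 fell, a total near the 69.8% of all genes called (34.9% up, 35% down). With SAHA 11 rose and 8 fell, again near the 58.8% of all genes (27.4% up, 31.4% down). Their median log2 differences were 0.088 and 0.047, against 0.0016 and -0.015 over all genes. MAP2K3, a kinase that activates p38, rose from 49.9 ± 0.429 FPKM to 86.4 ± 2.97 with H93 and 74.9 ± 3.77 with SAHA. MAPK8, which encodes the JUN kinase JNK1, rose from 14.9 ± 0.299 to 21.5 ± 0.460 and 18.6 ± 0.414, whereas MAP2K7, an activator of JNK, fell from 16.8 ± 0.176 to 11.3 ± 0.903 and 12.9 ± 0.820. ELK3, an ETS partner of SRF, rose from 34.4 ± 1.16 to 52.7 ± 0.955 and 49.4 ± 0.900. RPS6KA2, an ERK-activated kinase, fell from 8.04 ± 0.163 to 4.94 ± 0.139 and 4.83 ± 0.278. In H93 against SAHA 7 genes of this list were higher and 2 lower, 9 in all, beside 31.5% of all genes, and 5 in all without H93 replicate 1.

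Genes that restrain MAP kinase signalling or turn over AP-1 proteins were tested in 21 of 21 cases. With H93 9 rose and 6 fell, beside 34.9% and 35% of all genes, and with SAHA 7 rose and 7 fell, beside 27.4% and 31.4%. In H93 against SAHA 6 were higher and 0 lower in limma, also 0 lower at an unadjusted p under 0.05, beside 17.6% higher and 13.9% lower among all genes. The number called was thus near the background of 69.8%, 58.8% and 31.5% in the 3 comparisons, and the split of the 6 was not tested against that of all genes. The median log2 differences were 0.068, 0.029 and 0.058, against 0.0016, -0.015 and 0.016 over all genes. The phosphatase genes DUSP5, DUSP6 and DUSP4 and the inhibitor SPRY4 led. DUSP6, an ERK phosphatase, read 13.6 ± 0.978 FPKM in DMSO, 27.6 ± 1.29 in H93 and 21.3 ± 0.271 in SAHA. DUSP4 read 1.00 ± 0.147, 2.33 ± 0.0630 and 1.60 ± 0.154. Their H93 against SAHA differences were each 0.36 in log2 (adjusted p = 0.000228 and 0.00213, limma). DUSP5 rose by 1.27 in log2 with H93 and 1.14 with SAHA, and SPRY4 by 1.22 and 0.91.

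Genes known as AP-1 targets were listed next, 38 in all, of which 28 had enough signal. With H93 20 rose and 8 fell, beside 34.9% and 35% of all tested genes, and with SAHA 19 rose and 7 fell, beside 27.4% and 31.4%. The median log2 differences were 0.45 and 0.52, against 0.0016 and -0.015 over all 11525 genes. Several genes were placed on this list with their earlier results in these libraries known, so its direction is not independent evidence. The filter also plays a part. MMP10, counted among the rises, read at most 0.207 FPKM in DMSO and passed only through treated libraries. IL6, counted among the falls, read at most 0.719 FPKM in H93 and passed through DMSO and SAHA libraries. SERPINB2 rose by 4.76 in log2 with H93 and 4.37 with SAHA, and the collagenase gene MMP1 by 3.45 and 2.97. HBEGF, a growth factor of the EGF family, went from 10.1 ± 0.971 FPKM to 30.6 ± 0.631 and 23.6 ± 0.386. Falls included the cytokine IL6 (1.80 to 0.670 and 0.858 FPKM on average), VEGFA (57.2 to 34.0 and 37.5) and HMOX1 (42.3 to 28.0 with H93). In H93 against SAHA 12 targets were higher and 7 lower, beside 17.6% and 13.9% of all genes; CXCL8 (log2 difference 0.50) and MMP1 (0.48) differed most.

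**Figure D5:**
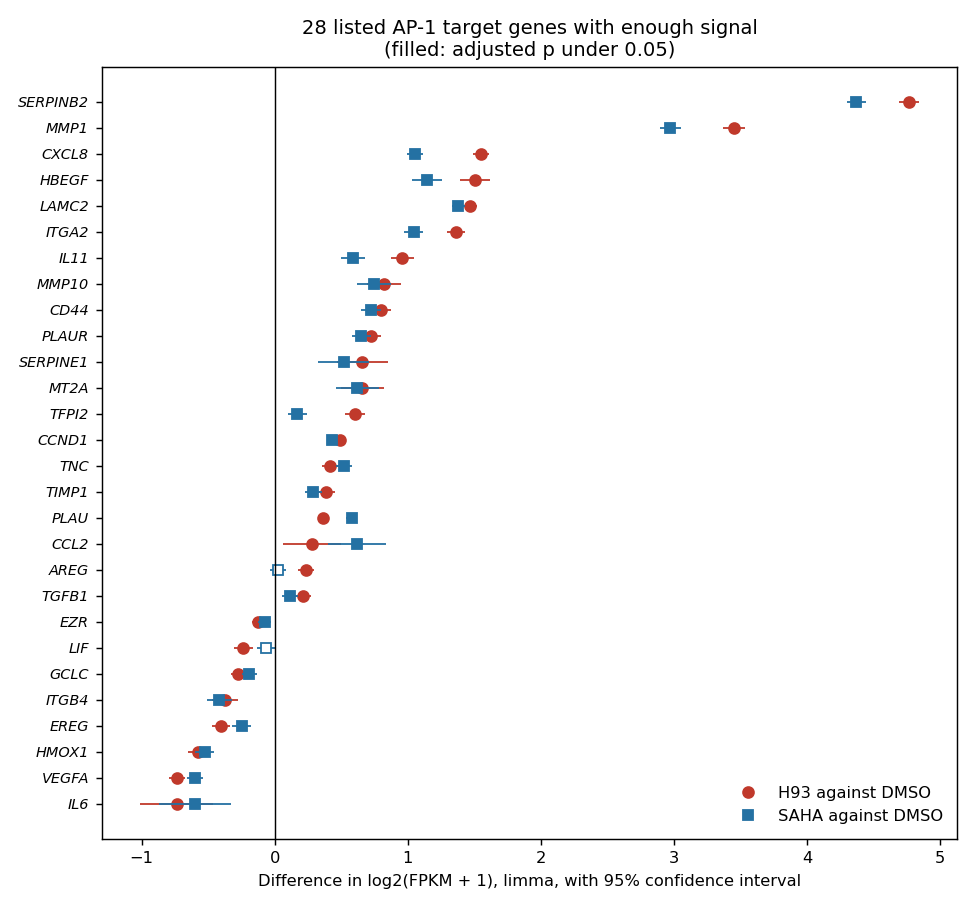
Differences in log2(FPKM + 1) with 95% confidence intervals from limma for 28 listed AP-1 target genes, ordered by H93 against DMSO (red circles), with SAHA against DMSO as blue squares, filled where the adjusted p was under 0.05. SERPINB2 (4.76 and 4.37) and MMP1 (3.45 and 2.97) stand farthest right, and IL6 (-0.74 and -0.60) farthest left.

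Of the targets 25 had a promoter window, and 9 of these held a TRE, among them 5 of the 19 tested ones. These 5 sites are shown with 10 bases on each side, on the gene's strand of GRCh38.p14, because they are the TRE matches among the tested targets; the FOSL2 site follows for comparison. Capitals mark the TRE.
CXCL8: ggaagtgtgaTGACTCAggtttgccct
IL11: gcagggagggTGAGTCAggatgtgtca
PLAUR: cacaactccaTGAGTCAgggccgagcc
MT2A: gagccgcaagTGACTCAgcgcggggcg
EZR: ggcggggcgcTGACTCAcccgggcccg
FOSL2: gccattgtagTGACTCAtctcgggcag

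The stretches lie at chr4:73740422-73740448 (plus strand), chr19:55370543-55370569 (minus), chr19:43670339-43670365 (minus), chr16:56608470-56608496 (plus), chr6:158818275-158818301 (minus) and chr2:28392852-28392878 (plus). The first 4 of these genes rose with both compounds and EZR fell. CXCL8, encoding interleukin-8, read 47.3, 48.0 and 47.8 FPKM in DMSO, 145, 142 and 137 in H93 and 97.9, 102 and 100.1 in SAHA. IL11 read 20.8, 22.5 and 20.7 FPKM in DMSO, 40.8, 43.9 and 42.5 in H93 and 31.3, 32.5 and 33.7 in SAHA. In both cytokine genes the 3 groups were fully apart, with H93 highest. PLAUR, the urokinase receptor gene, went from 42.5 ± 0.984 FPKM to 70.7 ± 1.69 and 67.4 ± 3.10. MT2A, a metallothionein gene with close paralogs and so uncertain, had log2 differences of 0.66 and 0.62. EZR, encoding the membrane linker ezrin, had differences of -0.12 and -0.075.

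The same windows were available for 9528 of the 11525 tested genes, and 433 of these held a TRE. With H93 41.3% of the TRE genes rose and 33.3% fell, beside 34.6% and 35.0% of all 9528. With SAHA 37.2% rose and 30.0% fell, beside 27.1% and 31.5%. The 2-fold size was reached upward by 4.16% of TRE genes with H93 and 1.62% with SAHA, beside 1.39% and 0.682%. The median differences of TRE genes were 0.052 with H93 and 0.027 with SAHA, beside 0.0015 and -0.016 over all 9528. Their median absolute differences were 0.244 and 0.182, beside 0.197 and 0.144. The TRE-like site of JUN occurred in 183 tested genes, of which 50.3% rose and 22.4% fell with H93, and 40.4% and 20.2% with SAHA. For the 377 genes with a full CRE, as in JUND, 37.1% rose and 31.6% fell with H93. Promoters with the TATA box letters TATAAA, which TRE promoters can also hold, numbered 758, and 43.4% of them rose with H93. Of these TATA genes 3.56% reached the 2-fold size upward with H93 and 2.11% with SAHA. A share above that of all 9528 was thus not particular to the TRE. For genes with the TRE-like site the 2-fold shares were 1.09% and 0.546%, below those of all 9528. These shares are descriptions of overlapping sets and were not tested.

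Genes with the most similar pattern over the 9 libraries were found by Pearson correlation of log2(FPKM + 1), among genes whose group means spanned at least 50% of the member's range. The libraries form 3 treatment groups, so high values mostly reflect the order of the 3 groups. For JUN the nearest were TNFAIP3, a feedback inhibitor of NF-kB signalling (r = 0.998), SRGAP1 and NFASC. TNFAIP3 went from 10.4 ± 0.200 FPKM in DMSO to 24.5 ± 0.301 in H93 and 20.2 ± 0.247 in SAHA. For FOSL1, which peaked with SAHA, they were the integrin subunit genes ITGB3 (r = 0.996) and ITGB5 (r = 0.993), and MSH5. ITGB5 went from 46.4 ± 0.443 to 57.9 ± 1.98 and 64.6 ± 0.229 FPKM. For JUNB they were DHX16, ERGIC1 and CSRNP1 (r from 0.982 to 0.993), for FOS NENF, TM2D2 and MARK4 (0.976 to 0.984), and for JUND DNAJC17, NBEAL2 and PAGR1 (0.980 to 0.982).

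In GENCODE release 29 on GRCh38 all 7 members are protein-coding. JUN lies on chromosome 1 from 58780788 to 58784327, JUNB on chromosome 19 from 12791496 to 12793315 and JUND on chromosome 19 from 18279760 to 18281622. JUN and JUNB have a single exon. FOS lies on chromosome 14 from 75278774 to 75282230, FOSB on chromosome 19 from 45467995 to 45475179, FOSL1 on chromosome 11 from 65892049 to 65900573 and FOSL2 on chromosome 2 from 28392448 to 28417312. The GENCODE spans of JUN, FOS and FOSL2 begin upstream of the RefSeq starts from which the motif distances were counted. The JUN stretch printed above (58784048-58784297) lies within the GENCODE span of JUN. Motif distances therefore hold for the RefSeq starts only.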

How the data were processed

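RNA sequencing was done on 9 libraries of DU145 cells, 3 per group, grouped by sample title. Per the labels' protocols, RNA came from TRIzol extraction and a stranded poly(A) mRNA kit. The authors deposited 1 table of FPKM per gene and library. Trimmomatic 0.36, HISAT2 and Cufflinks, and the build GRCh38.p13, appear in the submitters' processing notes, with no role stated. Neither the annotation nor the strand setting is given in the sources used here. Depth is unknown, so no counting interval was computed.

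From these values log2(FPKM + 1) was fitted with limma 3.58.1 (R 4.3.3) over the 9 libraries, as group means with trended, moderated variances (residual df 6, prior df 6.05), two-sided, for 11525 genes reaching 1 FPKM in 3 or more libraries. The procedure was tested on simulated data. Alternatives were other pseudocounts and filters, rescaling, robust moderation, fewer libraries and a replicate block. The members and gene lists were chosen with earlier results of these data known. Named genes are the 7 members and, per list, the 4 with the largest H93 against DMSO and the 2 with the largest H93 against SAHA differences, and the 3 genes of most similar pattern per member called in H93 against DMSO, among genes whose range of group means was at least 50% of that of the member. IL6, VEGFA, HMOX1 and the genes with a TRE, a motif search added later, were named after their values were seen. Promoter sequences are from RefSeq (GRCh38.p14), matched by Entrez identifier. Tables were made in Python 3.11.15 with pandas 2.3.3 and plots with matplotlib 3.10.9.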

Additional observations from a re-analysis of the deposited data

How the results depend on the processing

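Over 342 recomputed member differences, 322 kept their direction and side of the threshold, 13 lost the call, 7 gained it and 0 reversed. Those 7 gains include FOSB, tested only without the filter. The H93 against DMSO calls for JUN, FOSL1, JUNB, JUND and FOS held in every alternative that kept the gene. FOS fell under the filter of a mean FPKM of at least 5, and its difference dropped from 0.46 to 0.23 for H93 and from 0.27 to 0.13 for SAHA with a pseudocount of 5. In H93 against SAHA, JUNB also lost its call under median-ratio rescaling (adjusted p = 0.067) and in a fit to the 6 compared libraries alone (0.0521), and JUND with no filter (0.056). FOS gained it with a pseudocount of 5 (0.0448), a fixed sum per library (0.0398) and the 6 compared libraries alone (0.0496). The cause was not tested.

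The number of genes at the 2-fold size went from 263, 129 and 2 (H93 against DMSO, SAHA against DMSO, H93 against SAHA) to 540, 292 and 8 with a pseudocount of 0.1, to 74, 30 and 1 with a pseudocount of 5, and to 156, 78 and 1 at a mean FPKM of at least 5, where fewer genes are tested. For H93 against SAHA it was 1 with no filter, with robust moderation and with the 6 compared libraries alone. Leaving out 1 library gave 1 to 3 such genes, 1 to 5 members called and 5 to 9 upstream genes called in that comparison.

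Same-numbered libraries did not deviate together (correlations from -0.0975 to 0.0355, against -0.0495 to 0.0697 for other numbers), and not every library correlated best with its own number. With the replicate number as a block 7986, 6649 and 3426 genes passed, against 8050, 6780 and 3629, and FOS passed for H93 against SAHA (adjusted p = 0.0396).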
